A study of Equus caballus with 12 samples.

Results

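The miRNAs of the heart were compared with those of the liver in 4 horses. The deposited table holds 629 entries, and 294 of them, those of known horse miRNAs, were followed here in the 4 heart and 4 liver libraries, out of 12 libraries in all. The other 335 entries are named only by their sequence, and the other libraries are of lung. The tissues came from the left ventricle of the heart and the right lobe of the liver of healthy cold-blooded stallions aged 1 to 2 years (horses 27, 30, 32 and 34), each of which gave 1 library per tissue. The pieces hold all cell types of the organ, so fewer cells of a type and less RNA per cell cannot be told apart in any value below.

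miRNAs are short RNAs that guide Argonaute proteins to messenger RNAs with a matching site and lower the output of those messages. A primary transcript can carry several miRNAs, and related miRNAs that share their first bases (the seed) can bind the same sites. The heart is known for miRNAs of striated muscle, such as miR-1 and miR-133a, several of which lie within or beside genes of the contractile apparatus. The liver is known for miR-122, which hepatocytes make in large amounts and which acts in lipid metabolism.

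The table holds normalized counts, not reads. If the smallest value above 0 in each library stands for 6 reads, the least the authors kept, the heart libraries held an estimated 8113895 to 9355513 reads and the liver libraries 3066869 (horse 27) to 8595569. Known miRNAs took 98.8 to 99.1% of the normalized counts in heart and 97.1 to 97.8% in liver, and 221 to 238 of them were above 0 in a heart library and 230 to 252 in a liver library. A normalized count is a read count divided by a size factor of its library. At 0, a name had fewer than 6 reads listed under it, which need not be the level of the RNA (see miR-17 and miR-106a below). Of the 294 miRNAs, 256 had at least 10 normalized counts in at least 4 of the 12 libraries and entered the limma test, on log2(normalized count + 1). The other 38 had too few libraries at that level, with a highest heart or liver value of 997. A miRNA was called upregulated or downregulated in heart at an adjusted p (Benjamini-Hochberg over the 256) under 0.05 if its heart minus liver difference on the log2 scale, the log2 fold change, reached 1 or -1. SE stands for the standard error of that difference. By this rule, 46.9% of the tested miRNAs were called (120), of which 51 (19.9%) were upregulated in heart and 69 (27.0%) downregulated. The 4 heart and the 4 liver values did not overlap for 52.3% of the 256. These shares are the background for each count of members below. They include 29 tested names at 0 in every heart or every liver library, which could be called in 1 direction at most.

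The markers of both organs stood where the labels put them. The 7 miRNAs of the striated muscle list together took 57.1 ± 3.89% of the known miRNA total in heart (SD, n = 4) and 0.0771 ± 0.0472% in liver. The 6 of the hepatocyte list took 32.3 ± 1.55% in liver and 0.657 ± 0.311% in heart, where most of it was miR-148a, which many tissues express. Each organ's leading miRNA was also above 0 in all libraries of the other. miR-1 stood at 1321, 4725, 1483 and 5919.7 normalized counts in the livers of horses 27, 30, 32 and 34, the order in which all values below are given, and miR-122 at 1161, 737, 1059 and 3116 in the hearts. In liver, miR-1 was 14.3, 7.07, 4.57 and 33.2 times as high as miR-133a, and in heart 3.50, 5.22, 7.28 and 27.6 times. The ratio was highest in horse 34 in both organs. miR-122 was 27.6 to 40.1 times as high as miR-194 in liver and 7.40 to 20.8 times in heart. Whether these low levels come from the cells of the organ was not tested.

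The heart libraries were dominated by fewer miRNAs than the liver libraries. miR-1, which promotes muscle differentiation, took 46.2, 46.7, 43.2 and 51.7% of the known miRNA total in the 4 hearts. miR-122 took 24.5, 21.6, 21.8 and 21.1% in the 4 livers. The share of the leading miRNA was higher in every heart than in any liver. The 10 most abundant miRNAs of a library made up 82.3 ± 1.64% of its total in heart and 76.03 ± 2.30% in liver. To reach 90% of the total took 15 to 17 miRNAs in heart and 22 to 25 in liver. The effective number of miRNAs, the exponential of Shannon's entropy and so the number of equally abundant miRNAs with the same evenness, was 10.7 ± 1.36 in heart and 19.99 ± 1.53 in liver. Each of these 4 measures separated the organs in the exact two-sided permutation test (adjusted p = 0.0286 over the 4, n = 4 and 4, the smallest the design allows). With the horse as a block, the exact sign-flip test gave p = 0.125 for each, which is the smallest that 4 pairs allow.

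**Figure D1:**
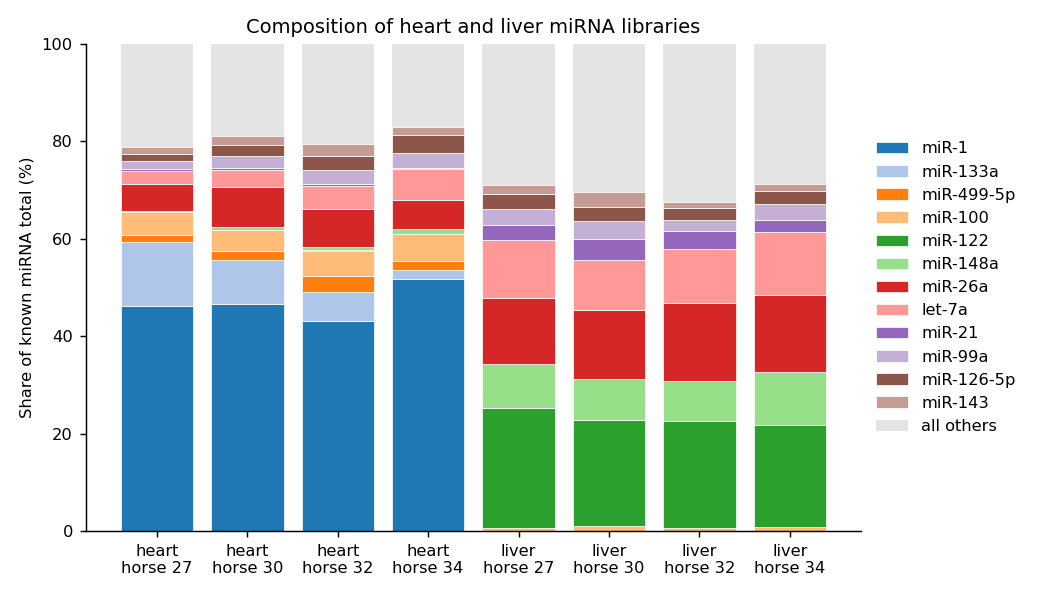
Share of the known miRNA total (y axis, %) in each heart and liver library (x axis), with 12 abundant miRNAs as colored segments and all others in grey. miR-1 fills 43.2 to 51.7% of the heart bars and miR-122 21.1 to 24.5% of the liver bars, while miR-26a and let-7a are taller in every liver bar than in any heart bar.

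Of the 12 miRNAs with the highest mean share in heart and the 12 in liver, 6 were the same: miR-26a, let-7a, let-7f, miR-99a, miR-126-5p and miR-143. After miR-1, the heart was led by miR-133a (7.49 ± 4.79%), which restrains the proliferation of heart muscle cells, miR-26a (6.84 ± 1.33%), miR-100 (4.94 ± 0.519%) and let-7a (4.27 ± 1.52%). Then came miR-99a, miR-126-5p, miR-499-5p, miR-27b, miR-143, miR-125b-5p and let-7f at 1.62 to 2.60% each. After miR-122, the liver was led by miR-26a (14.8 ± 1.23%), let-7a (11.6 ± 1.15%) and miR-148a (9.21 ± 1.16%). Next were miR-21, let-7f, miR-99a, miR-126-5p, let-7g, miR-199a-5p, miR-143 and miR-101 at 1.49 to 3.34% each. The miRNA ranked first in one organ stood far down in the other: miR-1 held rank 68 in liver and miR-122 rank 90 in heart. Other muscle miRNAs stood lower still, with miR-133a at rank 142 and miR-499-5p, which is encoded within the myosin gene MYH7B, at rank 152 in liver.

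These shares bear on the scale of each comparison. The normalized counts of a heart library summed to 10173013 to 15323695 and those of a liver library to 4475897 to 5676356, so a miRNA at the same normalized count in both organs held a smaller share in heart. Going from normalized counts to shares (log2 of parts in 1000000 + 1) moved the log2 fold changes of the 256 miRNAs by a median of -1.20, from a median of -0.23 to -1.24. On the share scale, 26 miRNAs were higher in heart (10.2%) and 138 lower (53.9%). Of the 120 miRNAs called in normalized counts, 94 were called in the same direction as shares, and none was called in the opposite direction. The 26 higher as shares were all among the 51. The other 25 of the 51 were not called as shares, and of the 136 not called in normalized counts, 70 were lower as shares.

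Abundant miRNAs common to both organs lay near no difference in normalized counts and below it as shares. miR-26a, one of the most abundant miRNAs of many tissues, stood at 548586, 981788, 794605 and 908455 normalized counts in heart and 747340.0, 678628, 693306 and 870951 in liver. The ranges overlapped, and the log2 fold change was 0.086 (standard error 0.18), but as a share miR-26a was lower in heart by -1.13 on the log2 scale (adjusted p = 4.49e-05, limma). The let-7 family, which restrains proliferation, did the same. None of its 7 members listed under a known name was called in normalized counts, with log2 fold changes of -0.87 to 0.14, and all 7 were lower in heart as shares. Among them, miR-98 was called lower in normalized counts without the heart of horse 32 (-1.11, adjusted p = 0.0229, limma) or of horse 34 (-1.10, adjusted p = 0.0234). let-7a went from -0.29 to -1.50, let-7f from 0.095 to -1.12, let-7g from -0.45 to -1.67 and let-7c from -0.27 to -1.48. The family took 7.32 ± 2.86% of the total in heart and 18.9 ± 1.94% in liver. miR-92a (-0.20 and -1.41) and miR-125a-5p (0.046 and -1.17) also turned from no call to lower, whereas miR-199a-5p (0.34 and -0.87) and miR-199b-5p (0.35 and -0.87), of fibroblasts and other mesenchymal cells, were called on neither. In the other direction, miR-143, known from smooth muscle, was upregulated in heart in normalized counts (1.25, adjusted p = 0.00661) and at 0.037 as a share. Its call also ended without horse 32 (log2 fold change 0.92) and without horse 34 (adjusted p = 0.0518, limma). miR-125b-5p went from 1.62 to 0.41 and miR-30c from 2.17 to 0.95, so neither was called as a share.

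**Figure D2:**
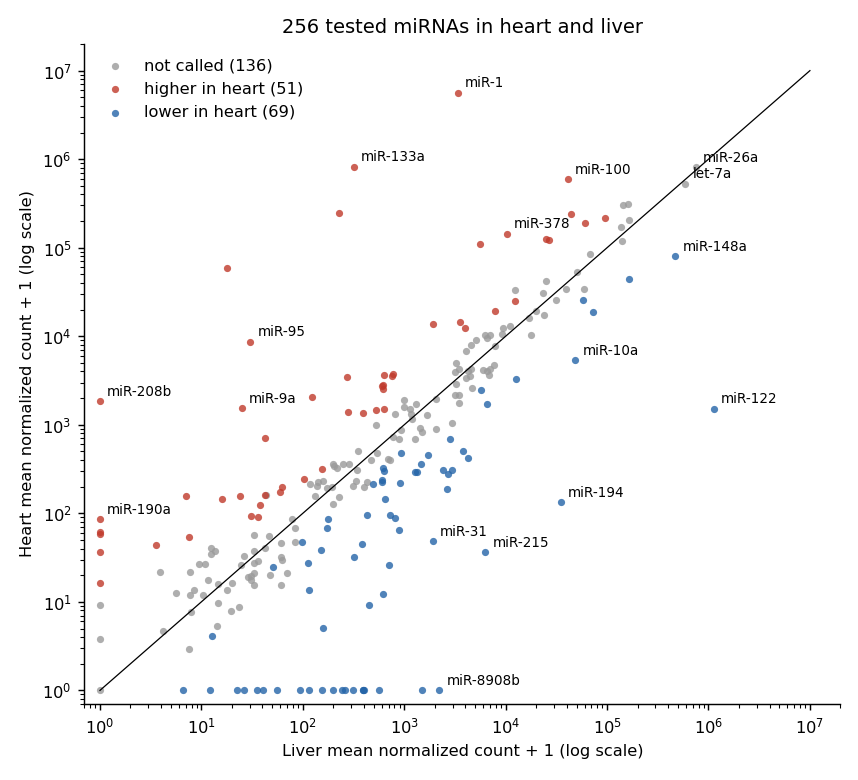
Mean normalized count + 1 of the 256 tested miRNAs in liver (x axis) and heart (y axis), both on log scales, with the diagonal as a line and a value of 0 drawn at 1. The 51 miRNAs upregulated in heart are red, the 69 downregulated blue and the 136 not called grey, and miR-26a and let-7a lie close to the diagonal.

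The miRNAs upregulated in heart differed in size by orders of magnitude. Of the 51, 12 had a log2 fold change of 5 or more, 22 of 2 to under 5 and 17 below 2. A fold against an organ at 0 depends on the pseudocount, and with names at 0 in every liver set at the smallest value above 0 in each library, the counts were 8, 25 and 18. The heart values of 44 lay above all liver values, and 47 were higher in heart in each of the 4 horses. The striated muscle list had 6 tested members, and all were upregulated, beside 19.9% of all tested, with a median log2 fold change of 10.91 (10.57 with names at 0 set at that smallest value) against -0.23 over the 256. The log2 fold changes of those above 0 in liver were 10.16 for miR-499-5p, 10.98 for miR-1, 11.49 for miR-133a and 12.24 for miR-133b. miR-208b, of the myosin gene MYH7, stood at 1749, 1769, 2100.4 and 1741 normalized counts in heart and was listed at 0 in every liver. miR-206, the sixth and mostly a miRNA of skeletal muscle, stood at 38.5, 44.6, 63.7 and 80.8 normalized counts in heart and at 0 in every liver. At 0 in the livers, miR-208b and miR-206 passed the filter only through other organs and could not have been called downregulated. The seventh, miR-208a of the myosin gene MYH6, was listed at 255 in the heart of horse 27 and at 0 in all other libraries, and was not tested.

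Several abundant miRNAs outside the muscle list were also upregulated. miR-100, which acts on the mTOR pathway, stood at 463994, 529084, 533178 and 842627 normalized counts in heart and 42335, 49442, 31683 and 39756 in liver. The organs did not overlap, and its mean was 14.5-fold higher in heart (limma log2 fold change 3.84, SE 0.25, adjusted p = 1.03e-07). miR-378, encoded within PPARGC1B, a coactivator of mitochondrial energy metabolism, stood at 143405, 158695, 99724 and 175636 in heart and 10652, 12022, 8758 and 9743 in liver, 14.02-fold apart in the mean (limma log2 fold change 3.79, SE 0.25, adjusted p = 1.36e-07). Every heart was above every liver. miR-486-5p, encoded within ANK1 and abundant both in muscle and in red blood cells, stood at 99611, 66906, 114649.9 and 160133 in heart and 6377, 6888, 5066 and 4149.8 in liver (log2 fold change 4.25). The second red blood cell miRNA in the table, miR-144, was listed at 0 in every heart and at 44.4, 0, 163 and 0 in liver, too few libraries for a test, so the red blood cell list had 1 tested member. All 3 kept their direction and call as shares, at 2.62, 2.57 and 3.04.

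Less abundant miRNAs were upregulated too. miR-95 stood at 2549, 3977, 15773 and 12537 in heart and 11.1, 44.3, 22.03 and 39.6 in liver (limma log2 fold change 7.97, SE 0.63, adjusted p = 5.56e-07). The hearts of horses 32 and 34 were well above those of horses 27 and 30, and all 4 were far above every liver. miR-9a, best known from neurons, stood at 808, 1018, 2057 and 2255 in heart and 0, 19.3, 17.6 and 59.4 in liver (limma log2 fold change 6.83 with adjusted p = 0.000119). miR-504, within FGF13, was at 1769, 1608, 2156 and 2684 and 109, 208, 77.8 and 90.5 (log2 fold change 4.15). miR-342-5p, within EVL and counted among leukocyte miRNAs, was at 4241, 2965, 3424 and 3076 in heart and 252, 261, 297 and 272 in liver, with little spread in either organ (limma log2 fold change 3.65, SE 0.18, adjusted p = 1.54e-08). miR-1543, within the host gene SNHG4, was at 712, 719, 930.0 and 501 and 20.3, 52.3, 37.5 and 56.8 (log2 fold change 4.13). The 5 miRNAs were also called as shares, with log2 fold changes from 2.41 for miR-342-5p to 6.52 for miR-95. miR-490-5p, within the muscarinic receptor gene CHRM2, was at 373, 131, 46.9 and 72.3 in heart and 11.1, 8.05, 5.14 and 0 in liver (log2 fold change 4.49). Its mean was 25.7-fold higher in heart, or 13.7-fold once the heart of horse 27 was left out. miR-1307 was at 1696, 1766, 2597 and 4129 in heart and 1101, 1348, 0 and 0 in liver. Its call (adjusted p = 0.0337) ended without horse 32 (adjusted p = 0.182, limma) or 34 (0.185), with the liver of either left out (0.0972 and 0.0952) and without any 1 heart (0.0531 to 0.0722). As a share it was not called either (3.73, adjusted p = 0.0544, limma). The same held with size factors refitted over the heart and liver libraries (0.0758) and in a fit without lung (0.0810).

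Of the 51, 6 were listed at 0 in every liver library. They passed the filter only through other organs and could not have been called downregulated. Besides miR-208b and miR-206, these were miR-190a, within the talin gene TLN2, at 101, 68.4, 95.01 and 75.7 in heart, miR-592, within the glutamate receptor gene GRM8, at 79.6, 44.6, 87.2 and 31.97, and miR-384 at 38.5, 13.4, 36.9 and 52.2, with miR-582-5p at 13.7, 26.8, 21.2 and 0. These values were low, and miR-582-5p was at 0 in 1 heart. Its call (adjusted p = 0.00888) ended without horse 27, 30 or 32 (adjusted p = 0.0546, 0.0740 and 0.0722, limma). No fold is given for names at 0 in every library of an organ. The smallest value above 0 was 6.71 to 10.1 normalized counts in the hearts and 3.96 to 11.1 in the livers. A miRNA listed at 0 may thus still be present below that, or above it under another name.

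**Figure D3:**
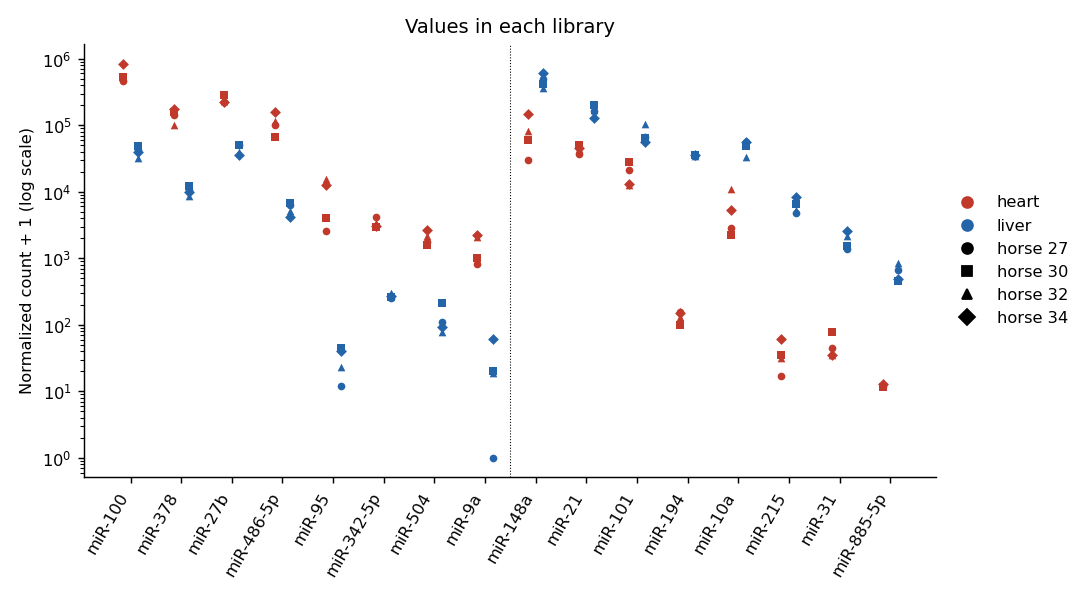
Normalized count + 1 (y axis, log scale) of 8 miRNAs upregulated in heart (left of the dotted line) and 8 downregulated (right) in each library, with heart in red, liver in blue and marker shapes that tell the 4 horses apart. The organs do not overlap for any of the 16, and the 4 livers of miR-194 lie between 33886 and 36305.

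The clusters of miR-23, miR-27 and miR-24, which act in angiogenesis and muscle growth, were upregulated as a whole. RefSeq's annotation places miR-23b, miR-27b and 1 copy of miR-24 together within AOPEP, and miR-23a, miR-27a and the other copy of miR-24 in a second cluster. All 5 names were called in normalized counts, at 3.58 ± 0.708% of the total in heart and 1.68 ± 0.277% in liver. miR-27b stood at 219974, 287748, 234479.7 and 220525 normalized counts in heart and 50245, 49653, 39724 and 35758 in liver (limma log2 fold change 2.46, SE 0.17, adjusted p = 1.36e-07). The log2 fold changes were 2.34 for miR-24 and 2.02 for miR-23b, against 1.61 for miR-23a and 1.33 for miR-27a. As shares, miR-27b (1.25) and miR-24 (1.13) were still called, while miR-23b (0.81), miR-23a (0.39) and miR-27a (0.11) were not.

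Related miRNAs did not all move together. For 7 groups of related names, the share of 1 member within the sum of its group was compared, a measure that does not depend on how the libraries are scaled. The pair of miR-10 genes, which lie within HOXB and HOXD clusters of developmental genes, split the most. miR-10a stood at 2852, 2217, 11003 and 5298 normalized counts in heart and 56587, 48584, 33212 and 55335 in liver (limma log2 fold change -3.44 with adjusted p = 4.88e-05). miR-10b went the other way, at 13402, 8999, 12676 and 19221 in heart and 368, 1616, 532 and 5113 in liver (limma log2 fold change 3.54 with adjusted p = 0.00152). miR-10a made up 26.3 ± 13.5% in heart and 96.5 ± 3.49% in liver of their sum. Within single hearts it took 17.5, 19.8, 46.5 and 21.6%, so horse 32 stood above the others. The fold of miR-10a was 9.06 in favor of liver, or 14.01 without the heart of horse 32, and that of miR-10b 7.12 in favor of heart, or 16.2 without the liver of horse 34.

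miR-29a, miR-29b and miR-29c, which repress collagen and other matrix genes, are related in the same way. miR-29b (2.04, adjusted p = 0.00241) and miR-29c (2.38, adjusted p = 0.00388) were upregulated in heart by limma, and miR-29a, the most abundant, was not called (-0.53). miR-29a made up 77.9 ± 6.83% in heart and 95.9 ± 0.601% in liver of the 3. As shares of the library, miR-29b and miR-29c were not called (0.82 and 1.15) and miR-29a was lower in heart (-1.75, adjusted p = 0.00207, limma). Among miR-30 members, known from heart muscle and fibroblasts, miR-30c (2.17) and miR-30e (1.04, but -0.17 as a share) were upregulated and miR-30b was not called (0.36). The call of miR-30e ended without horse 27 (log2 fold change 0.86) or 30 (0.91), without the heart of horse 27 (0.92) and when the liver was left out of horse 27 (0.98), 30 (0.95) or 34 (0.97). miR-30c made up 77.8 ± 5.53% in heart and 59.03 ± 3.67% in liver of the 3. Of miR-99a, miR-99b and miR-100, which differ by few bases, only miR-100 was called, and it made up 65.1 ± 4.09% in heart and 20.03 ± 3.25% in liver of their sum. miR-99a was at 0.94 and miR-99b at 0.59. miR-99a was called without horse 27 (1.27, adjusted p = 0.0388, limma) or without its heart (1.19, adjusted p = 0.0196). The same held with size factors refitted over the heart and liver libraries (1.06, adjusted p = 0.0284, limma).

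miR-125b-5p made up 77.5 ± 7.23% in heart and 54.5 ± 2.54% in liver of miR-125b-5p and miR-125a-5p, miR-27b 92.5 ± 0.977% in heart and 84.9 ± 1.66% in liver of miR-27b and miR-27a, and miR-23b 54.6 ± 4.15% in heart and 47.4 ± 3.89% in liver of miR-23b and miR-23a. In each of the 7 groups the 4 heart and 4 liver percentages did not overlap. The groups were chosen after their values were seen, so they are described without a test, and reads of related sequences may be counted under the wrong name. When all names with the same number were summed, 204 family sums could be tested, and 40 (19.6%) were higher in heart and 51 (25.0%) lower. Of the 8 most abundant families with 2 or more names, miR-133 (11.52), miR-27 (2.34), miR-30 (1.77) and miR-125 (1.12) were higher in heart, miR-148 (-2.71) was lower, and let-7 (-0.22), miR-99 (0.92) and miR-199 (0.34) were not called. The sum of miR-10a and miR-10b was lower in heart (-1.45), and that of the miR-29 names was at -0.23.

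**Figure D4:**
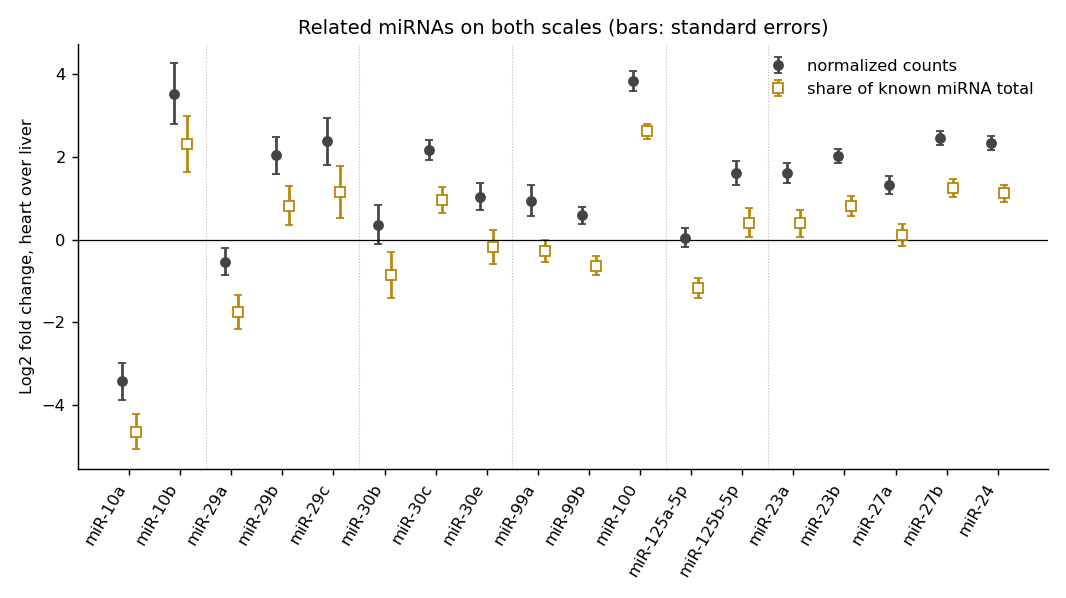
Log2 fold change of heart over liver (y axis) for 18 related miRNAs (x axis, dotted lines between groups), in normalized counts (filled circles) and as shares of the known miRNA total (open squares), with standard errors from limma as bars. miR-10a and miR-10b lie on opposite sides of 0 on both scales, and every share lies below its normalized count.

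Of the 69 miRNAs downregulated in heart, 23 had a log2 fold change of 5 or more in size, 29 of 2 to under 5 and 17 below 2, or 13, 34 and 22 with names at 0 in every heart set at the smallest value above 0. None of the 69 was higher in heart in any of the 4 horses, and for 65 the organs did not overlap. All 5 tested miRNAs of the hepatocyte list were among the 69, beside 27.0% of all tested, with a median log2 fold change of -7.55. All 11 tested names of the horse miR-8908 family were downregulated too. Those 11 stood at 0 in every heart and passed the filter only through other organs. None of them could thus have been called upregulated, so their count is no support. After miR-122 (-9.75), the hepatocyte list was led by miR-194 and miR-215, which share a locus within IARS2 and are known from epithelia of the liver and gut. miR-194 stood at 33886, 35343, 34401 and 36305 normalized counts in liver and 155, 99.6, 129 and 149.7 in heart (limma log2 fold change -8.05, SE 0.23, adjusted p = 1.14e-10). The 4 livers differed by little. miR-215 was at 4856, 6548, 5314 and 8376 in liver and 16.2, 34.2, 30.2 and 60.6 in heart (log2 fold change -7.55). miR-885-5p, within the calcium pump gene ATP2B2, was at 660.4, 460.2, 856 and 494 in liver and 11.2, 10.4, 12.3 and 11.8 in heart, 54.1-fold lower in the mean (limma log2 fold change -5.60, SE 0.28, adjusted p = 1.54e-08). miR-148a stood at 503225, 415777, 359262 and 601914 in liver and 29879.7, 59535, 81376 and 149991 in heart. The organs did not overlap, and the heart of horse 34 was the highest of the hearts (limma log2 fold change -2.76 with adjusted p = 0.000861).

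Of the 69, 20 names were listed at 0 in every heart library. They passed the filter only through other organs and could not have been called upregulated. Among them were the 11 tested names of the miR-8908 family, among which reads of like sequences can be split. Their sum, with the untested twelfth name, was 2853 to 13459 normalized counts in the livers. The most abundant, miR-8908b, was at 2329, 4292, 1100.1 and 1146, and miR-8908l at 1521, 3561, 313 and 625. The liver of horse 30 was the highest for both. miR-372, known from stem cells and the germ line, was at 932, 257, 195 and 169.7 in liver, with horse 27 above the others, and miR-383 at 235, 68.4, 194 and 116.

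Other liver-high miRNAs are expressed in many tissues. miR-21, known from stressed and proliferating cells, stood at 164585, 201254, 168165 and 129687 in liver and 37493, 50004, 43485 and 46171 in heart (limma log2 fold change -1.90, SE 0.21, adjusted p = 1.06e-05). miR-101, which acts on the chromatin repressor EZH2, was at 67550.0, 63286, 105427 and 56053 and 21359.9, 28084, 12522 and 12924 (log2 fold change -2.01). miR-31 was at 1375, 1534, 2153 and 2587 in liver and 43.5, 77.3, 34.7 and 33.7 in heart, 40.4-fold lower in the mean (limma log2 fold change -5.35, SE 0.38, adjusted p = 1.90e-07). miR-32, within TMEM245, was at 710.4, 624, 1508 and 733 and 43.5, 43.1, 80.5 and 89.2 (log2 fold change -3.76), with the liver of horse 32 above the others. For each of these the 4 livers lay above the 4 hearts. miR-21 and miR-101 are among the 12 most abundant of the liver, and as shares they stood at -3.11 and -3.22.

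miRNAs that lie together in the genome were compared with their neighbors. RefSeq's annotation of the TB-T2T horse assembly, which matched 293 of the 294 names, placed tested miRNAs with gaps of at most 10 kb in 36 clusters of 2 or more names. Over all tested names, 19.9% were upregulated and 27.0% downregulated. A name with copies in several clusters, such as miR-24, was counted in each. In 6 clusters every tested member was upregulated. In 6 every one was downregulated, among them the miR-8908 cluster, at 0 in every heart. In 14 none was called, and in 9 some were called in 1 direction and others not. For example, a copy of let-7a (-0.29) lies with miR-100 (3.84), and miR-29a (-0.53) with a copy of miR-29b (2.04). In the other cluster, that of miR-200a, miR-200b and miR-429, calls went both ways. The 3 epithelial miRNAs were lower in heart (-3.91, -3.45 and -6.28) and miR-3548 was higher at 90.8, 104, 111 and 57.2 in heart against 38.8, 37.8, 35.2 and 29.1 in liver (log2 fold change 1.30, or 0.11 as a share). In the X-linked cluster of miR-424, miR-503, miR-542-5p and the 3 miR-450 names, known from cell cycle arrest and differentiation, all 6 names were downregulated, from -2.33 for miR-542-5p to -5.68 for miR-503. miR-450c, the most abundant, was at 4349, 3772, 4155 and 4728 normalized counts in liver and 536, 211, 462 and 464 in heart (limma log2 fold change -3.42 with adjusted p = 6.02e-06), miR-450a at -3.37, miR-450b-5p at -2.99 and miR-424 at -3.20. miR-221 and miR-222, neighbors that repress the cell cycle inhibitor p27, were both downregulated (-1.89 and -1.99). The neighbors miR-195 and miR-497 (0.58 and -0.37) and the miR-25, miR-93 and miR-106b cluster within MCM7 (0.15, -0.33 and 0.68) were not called.

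Imprinted loci hold many miRNAs. Of the 35 tested miRNAs of the imprinted DLK1-DIO3 region, which is expressed from 1 parental copy, 10 were downregulated in heart (28.6%), 1 was upregulated and 24 were not called, with a median of -1.004 in normalized counts and -1.81 as shares, against -0.23 and -1.24 over all tested. The share called lower was close to the background of 27.0%. As shares, 32 of the 35 were lower. The most abundant were miR-379 (-0.60), miR-411 (-0.82), miR-127 (-0.061) and miR-543 (-1.10), none of which was called. miR-543 was called without horse 34 (adjusted p = 0.00515, limma) or its heart (adjusted p = 0.00787). miR-494 (-1.99, adjusted p = 6.83e-05) and miR-656 (-2.07, adjusted p = 0.000635) were downregulated by limma. The upregulated member was miR-433 (1.03 in normalized counts with adjusted p = 0.0421, limma, but -0.17 as a share). With the horse as a block it had an adjusted p of 0.0508, and it was called only without horse 27, without the heart of horse 30 or without the liver of horse 27 among the 12 fits that left out a horse or a library (highest adjusted p = 0.182 without horse 32, limma). Outside that region, 3 downregulated miRNAs lay within genes known for imprinting: miR-483 within IGF2, a fetal growth factor, at 3506, 2279, 5763 and 3549.6 in liver and 218, 652, 924 and 199 in heart (-3.15), miR-675 within the noncoding H19 at 466, 332, 356 and 363 and 17.4, 72.8, 45.8 and 38.7 (-3.24), and miR-335 within MEST at 244, 274, 175 and 569 and 42.3, 40.1, 17.9 and 23.6 (-3.25). None of the 3 overlapped between organs.

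**Figure D5:**
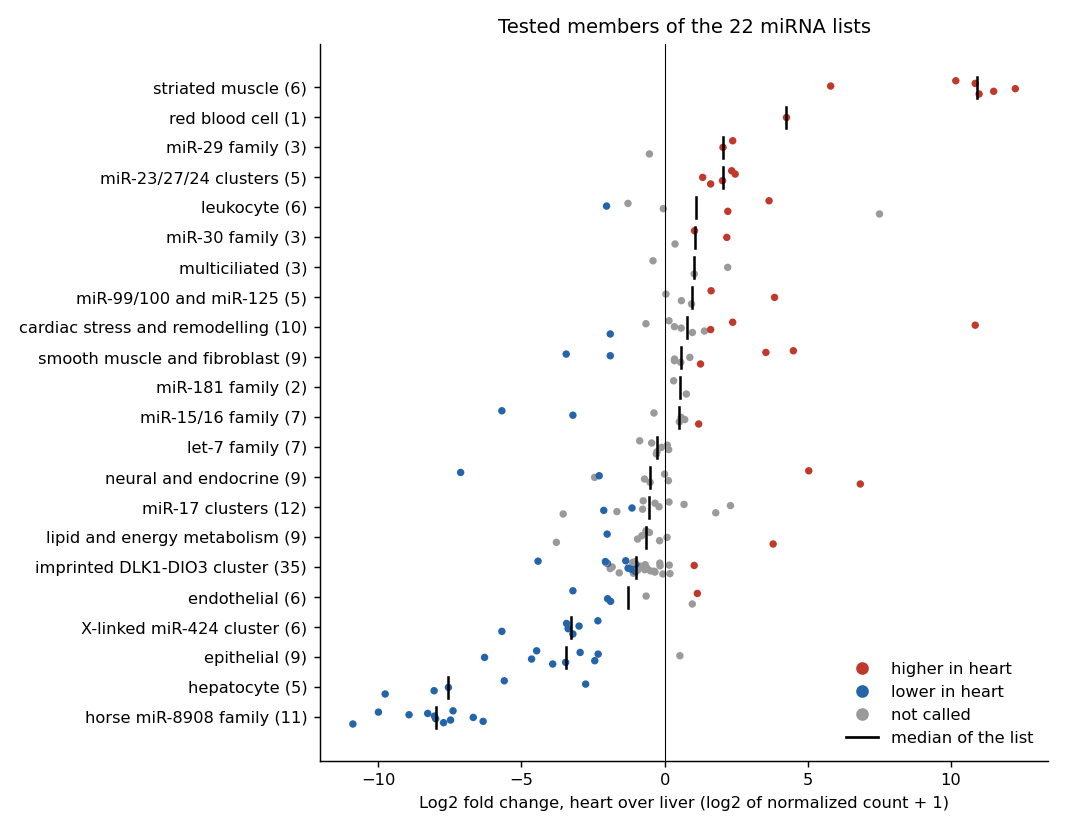
Heart minus liver difference (x axis, log2 of normalized counts) of the tested members of 22 lists (y axis, number tested in parentheses), colored by call, with the median of each list as a black bar; sizes of miRNAs at 0 in 1 organ depend on the pseudocount. The striated muscle list lies farthest to the right, and the miR-8908, hepatocyte, epithelial and X-linked lists lie to the left, while the let-7 members sit within 1 of 0.

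Lists for other cell types were counted to see what else the pieces held. Of 9 epithelial miRNAs, 8 were downregulated in heart, with a median of -3.45 (-2.44 with names at 0 set at the smallest value above 0), and the list summed to 327 to 1127 normalized counts in the hearts and 5633 to 7833 in the livers. miR-200b was at 3598, 3279.6, 2105 and 2773 in liver and 444, 137, 161 and 481 in heart, and miR-200a at 3287, 2521, 2808 and 1909 and 303, 99.6, 134 and 212. miR-200c (-2.44) and miR-182 (-2.32) were also lower, and miR-141 (18.5, 26.6, 40.4 and 16.5 in liver) and miR-96 (25.9, 23.3, 18.4 and 17.8) were listed at 0 in every heart. The call of miR-183 (-2.95) ended without horse 27 or 32 (adjusted p = 0.0546 and 0.0771, limma) and when the liver was left out of horse 27, 30 or 34 (0.0595, 0.0535 and 0.0529), and its log2 fold change was -1.64 without horse 30. The call also ended with size factors refitted over the heart and liver libraries (adjusted p = 0.0729, limma) and in a fit without lung (0.0658). miR-205, known from basal epithelial cells, was not called (0.53), but was without the heart of horse 34 (1.76, adjusted p = 0.0335). The epithelial share called lower, 8 of 9, stood beside a background of 27.0%. Of these, miR-141 and miR-96 passed the filter only through organs other than heart and could not have been called higher. None of the 3 tested miRNAs of multiciliated cells was called. miR-34c was at 308, 17.8, 38.01 and 281 in heart and 0, 82.9, 27.2 and 59.4 in liver, and miR-34b-5p at 78.3, 0, 12.3 and 43.7 and 0, 26.6, 5.87 and 13.2, with wide overlap. miR-34b-5p was called without horse 30 (2.97, adjusted p = 0.0461, limma). miR-449a was listed at 14.9 in the heart of horse 27 and 0 in the other hearts.

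Blood, vessel and connective tissue miRNAs gave mixed counts. Of 6 leukocyte miRNAs, miR-150 of lymphocytes (4208, 4763, 2456 and 2650.0 in heart and 1121, 500.5, 802 and 637 in liver, log2 fold change 2.21) and miR-342-5p were upregulated, miR-146a, a brake on innate immune signalling (2403, 2292, 3409 and 4915 and 11115, 10667, 13659.9 and 15705, -2.03), was downregulated and 3 were not called. Among these, miR-146b-5p (-1.28) was called without the heart of horse 30 (-1.70, adjusted p = 0.0346, limma). As a share, miR-150 was at 0.99 and not called. Of 6 endothelial miRNAs, miR-126-5p, within EGFL7, stood at 142420.2, 254874, 279738 and 551535 in heart and 171543, 140207, 106849 and 149808 in liver. It was not called (0.97, adjusted p = 0.0467), but was without horse 27 (1.38, adjusted p = 0.0157, limma) or without its heart (1.28, adjusted p = 0.00712). It was also called with size factors refitted over the heart and liver libraries (1.08, adjusted p = 0.0347, limma). miR-221, miR-222 and miR-424 of this list were lower. miR-501-5p was not called (-0.65). miR-218, within the SLIT genes, was upregulated in normalized counts (1.14, adjusted p = 0.0395, limma) but stood at -0.072 as a share. Its call ended in 10 of the 12 fits that left out a horse or a library (adjusted p up to 0.179 without horse 34, limma). The call held without horse 27 or its heart. Of 9 miRNAs of smooth muscle and fibroblasts, miR-143, miR-10b and miR-490-5p were upregulated and miR-21 and miR-10a downregulated. Fibroblast miR-199a-5p, miR-199b-5p, miR-214 (0.88) and miR-145 (0.56) were not called, although the last pair were when the heart of horse 34 was left out (1.06 and 1.002) and miR-214 also without horse 34 (1.08).

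Lists of processes in the heart were also mixed. Of 10 miRNAs of cardiac stress and remodelling, miR-208b, miR-328 and miR-23a were upregulated in these healthy hearts against liver, miR-21 was downregulated and 6 were not called, a share of 3 of 10 upregulated beside 19.9% in all. miR-328 stood at 1417, 2899.5, 4951 and 5155 in heart and 579, 591, 889 and 472 in liver (log2 fold change 2.38). miR-132 (0.97) was called only without horse 30 (1.38) or its liver (1.34), and miR-25 was at 0.15. Of 7 miRNAs of the miR-15/16 family, of cell cycle arrest, miR-424 and miR-503 were downregulated, as above, and miR-15a was upregulated (1.19, but -0.011 as a share), a call that ended without horse 27, 30 or 32 (adjusted p = 0.0739, 0.113 and 0.0598, limma), while the more abundant miR-16 was not called (0.70). Of 12 tested names of the miR-17 clusters, known from proliferation, miR-19b (-2.12) and miR-20b (-1.14) were downregulated and 10 not called, with miR-20a at -0.77. The call of miR-19b ended without horse 32 (adjusted p = 0.108, limma). That of miR-20b held only without horse 27 or its heart among the 12 fits (adjusted p up to 0.148 without horse 34). It also ended with size factors refitted over the heart and liver libraries (adjusted p = 0.0609, limma) and with a pseudocount of 10 (-0.87). Both miR-181 names (0.76 and 0.32) were not called. In the lipid and energy list, miR-378 was upregulated, miR-101 downregulated and 7 of 9 were not called, among them miR-22 (-0.79). Of 9 neural and endocrine miRNAs, miR-9a and miR-384 were upregulated, miR-383 and miR-138 were downregulated (miR-138 from 0, 8.85, 8.08 and 5.28 in liver to 0 in every heart, a call that ended without horse 30, 32 or 34 at adjusted p = 0.102, 0.0794 and 0.0654, limma), and miR-7 (-0.50) and miR-128 (0.13) were not called. miR-138 reached 10 normalized counts in no heart or liver, so it was tested only through lung. Its call also ended as a share (-0.996, adjusted p = 0.0716, limma) and with a pseudocount of 10 (-0.595, adjusted p = 0.168).

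Some names cannot be read alone. miR-199a-5p was 2.03 to 2.05 times miR-199b-5p in all 12 libraries, although their genes lie apart, within DNM3 and DNM1. miR-17 and miR-106a were within 4.02% (coefficient of variation) of a fixed ratio in the 7 libraries with both above 100, and in other libraries 1 of the names was at 0. In the liver of horse 30 miR-17 was at 5516 and miR-106a at 0, and in that of horse 27 miR-17 was at 0 and miR-106a at 6059. Their sum was 6641, 4676, 2516 and 1967 in heart and 6059, 5516, 6020.3 and 7207 in liver, which overlapped. By its own name miR-17 was not called, but was without horse 27 (adjusted p = 0.0154, limma). miR-103, at 0 in the heart of horse 27, and miR-107a, which alone was high there, summed to 36521, 34179, 23773 and 24579 in heart and 35373, 41766, 26969 and 46217 in liver, again with overlap. miR-142-5p, of leukocytes, stood at 1711, 1381, 1406 and 1491 in heart and 0, 0, 0 and 4607 in liver, so it was listed at 0 in 3 livers and was higher in the other than in any heart. It was not called (adjusted p = 0.0893, limma), but was without horse 34 (adjusted p = 0.0203) or its liver (adjusted p = 0.0174). It was also called with size factors refitted over the heart and liver libraries (adjusted p = 0.0445, limma) and in a fit without lung (0.0444). In lung it was also at 0 in 2 libraries and at 5832 and 11309.7 in the others.

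The entries named by sequence took 0.889 to 1.24% of the normalized counts in heart and 2.22 to 2.92% in liver. They show what stands under one name, since their bases are the name. The following are shown because they are the most abundant of these entries, because they differ between heart and liver, or because 1 RNA appears at several lengths. Each is given 5′ to 3′ with bases 2 to 8, the seed, in capitals. 
entry A: uUCAAGUAauucaggauagguug
entry B: uGUAAACAcccgacuggaagccg
entry C: uGAGGUAGuaguuugugcuguug
entry D: gUGAAAUGuuuaggaccacuaga
entry E, short form: aAAAGCUGgguugagagggcgaa
entry E, long form: aAAAGCUGgguugagagggcgaaaa
entry F, short form: aCUGGACUuggagucagaa
entry F, middle form: aCUGGACUuggagucagaaa
entry F, long form: aCUGGACUuggagucagaagu

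Entries A, B and C were among the most abundant. Entry A stood at 22245, 47670.5, 42934 and 43176 in heart and 40581, 40044, 44915 and 57315 in liver, with overlap. Entry B stood at 12104, 24615, 21384 and 69567 in heart and 10352, 9002, 5918 and 12392 in liver, so the heart of horse 34 was far above the rest and the organs overlapped. Entry C stood at 17516, 28876, 30101 and 40662 and 32486, 37653, 27890.5 and 26752, also with overlap. Entry D was higher in every liver (1800.0, 2065, 1101 and 1005) than in any heart (234, 149, 159.8 and 269). The short form of entry E was at 6502, 9305, 6629 and 0 in heart and 0 in every liver, and the long form, the same with 2 more bases at its 3′ end, at 0, 0, 0 and 7699 in heart and 9537, 8523, 12151 and 16499 in liver. Each library thus lists 1 of the forms, and the heart of horse 34 lists the form of the livers. Summed, they gave 6502, 9305, 6629 and 7699 in heart and 9537, 8523, 12151 and 16499 in liver, which overlapped. The 5 names that begin like entry F also varied in which form was listed, but their sum was 8137, 10638, 6787 and 9669.6 in heart and 2055, 2090.4, 1505 and 1141 in liver, higher in every heart than in any liver. These entries were chosen after their values were seen and are described without a test.

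The 4 hearts were farther apart than the 4 livers, a description given without a test. Over the 126 miRNAs with more than 100 normalized counts in all 8 libraries, the highest heart was a median of 1.94 times the lowest, and the highest liver 1.61 times. The ratio was over 3 for 26 in heart and 7 in liver. The heart of horse 34 was the highest of the 4 for 54 of the 126 and that of horse 27 for 37, against 22 for horse 30 and 13 for horse 32. The hearts of horses 27 and 34 stood at opposite ends for several abundant miRNAs, but not for all. miR-26a and miR-27b, for example, were highest in the heart of horse 30. miR-133a stood at 1332974, 1066430.3, 613594 and 283203 and miR-133b at 116809, 65653, 38839 and 13028 in the 4 hearts, highest in horse 27 and lowest in horse 34. miR-1 had its highest value in horse 34 (4659914, 5570703, 4465396 and 7824377). The let-7 list summed to 451853, 683405, 836889.6 and 1660970.2 in heart, and 6 of its 7 members were highest in horse 34 and 6 lowest in horse 27. In liver the same sum was 1075725, 824966, 766160.0 and 1183476. miR-148a, miR-128 (11031, 18813, 29641 and 64248) and miR-126-5p were likewise lowest in the heart of horse 27 and highest in that of horse 34, while miR-145 (16099.8, 11121, 10124 and 3609) was highest in horse 27 and lowest in horse 34. With 1 library per heart, the horse and the library cannot be told apart.

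The lung libraries of the same horses show where another organ stood. Of the 51 miRNAs upregulated in heart, the lung mean (log2) lay between heart and liver for 38, above both for 9 and below both for 4. Of the 69 downregulated, it lay between for 37, above both for 16 and below both for 16. miR-100 averaged 86246 ± 20900.3 in lung, between heart and liver, and miR-378 3789 ± 1038, below both. miR-21 (243607 ± 73109), miR-200b (24821 ± 4551) and miR-146a (45409.5 ± 25189.9) were higher in lung than in liver. miR-194 (339 ± 98.1) and miR-215 (36.8 ± 9.88) in lung were closer to their heart than to their liver levels. These levels are given without a test.

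Some of these miRNAs had also been measured by qPCR, and were picked for it on the same samples, so they are no independent evidence here. miR-100, miR-499-5p, miR-125b-5p and miR-23a were upregulated in heart, and miR-101 was downregulated, each in all 4 horses. As shares, miR-100 and miR-499-5p were also higher and miR-101 lower (-3.22), while miR-125b-5p (0.41) and miR-23a (0.39) were not called. miR-128, the qPCR reference, was not called in normalized counts (0.13) and lower in heart as a share (-1.08, adjusted p = 0.0314, limma). Its lowest heart was at 11031 and its highest at 64248 normalized counts.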

How the data were processed

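miRNA-seq libraries of heart, liver and lung of the 4 horses were read from 1 deposited table. The authors trimmed the reads, matched them to miRBase with sRNAbench, kept names with at least 6 reads and divided the counts by DESeq2 size factors, so the deposited values are a normalized signal (normalized counts), without a unit of length. The submitters' processing notes, which cover all assays of the series, name bcl2fastq, FastQC, Trimmomatic, BWA and DESeq2. Columns that hold the authors' own fold changes and p-values were not used.

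Groups were taken from the labels. Known names that reached 10 normalized counts in 4 or more of the 12 libraries entered limma 3.58.1 (R 4.3.3, trend) on log2(normalized count + 1), with 1 mean for each of the 3 tissues and the contrast heart minus liver, and again on log2(parts in 1000000 + 1). The scripts were tested on simulated data. The deposited values are normalized and the reads behind them were only estimated, so no count model was run. Single values per library were compared by exact permutation tests (Python 3.11.15, numpy 2.4.6, pandas 2.3.3, matplotlib 3.10.9). An estimated 3066869 to 9355513 reads stood behind each heart or liver library, if its smallest value above 0 is 6 reads, and a value at 0 allows fewer than 6 reads, which covers counting error only.

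Each horse gave 1 library per tissue, so the numbers pair the samples. The deviations of heart and liver libraries from their tissue means correlated at -0.17 to 0.15 within a horse (median -0.0739) and -0.24 to 0.27 between horses. A model with horse as a block was 1 of the alternatives, as were other scalings, pseudocounts, filters and the removal of each horse or library.

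The miRNAs named were the 12 most abundant of each organ, the 12 largest calls in each direction without overlap and with a mean of at least 100, up to 4 members of each list, the 8 most abundant uncalled ones within 0.5 of 0 (log2), the 8 most abundant whose call differed between the scales, and those measured by qPCR. Members, lists and this rule were chosen with earlier results of these data known. In addition, miR-10a, miR-10b, miR-17, miR-19b, miR-20b, miR-31, miR-32, miR-96, miR-99b, miR-103, miR-106a, miR-106b, miR-107a, miR-132, miR-138, miR-141, miR-142-5p, miR-145, miR-15a, miR-183, miR-190a, miR-205, miR-206, miR-208a, miR-214, miR-222, miR-328, miR-335, miR-384, miR-429, miR-433, miR-483, miR-494, miR-503, miR-542-5p, miR-582-5p, miR-592, miR-656, miR-675, miR-885-5p, miR-3548 and the entries named by sequence were singled out after their values were seen. miR-98 was likewise named after its values were seen. Genes around a miRNA were taken by name from RefSeq's TB-T2T annotation, with no coordinates, since the authors' build may differ. Mature sequences of the known miRNAs were not used here.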

Additional observations from a re-analysis of the deposited data

Results flagged for a closer look

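In groups of 4 libraries, 1 value stood apart from the other 3 by Dixon's criterion (the gap to the nearest other library, as part of the group's range) in 13 of 247 groups (5.26%), and chance alone gives about 1 in 20. All values are normalized counts. In the liver of horse 32, miR-99a was at 91323 against 181278 to 189518 in the other 3, miR-30e at 19258 against 9739.8 to 10497 in the other 3, miR-32 at 1508 against 624 to 733 in the other 3, miR-19b at 2442 against 900.1 to 919 in the other 3, and miR-93 at 3841 against 4125 to 4172 in the other 3. That library held 5 of the values, some above and some below the rest.

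In the heart of horse 27, miR-22 was at 47109.6 against 29138 to 30475 in the other 3. There, miR-208a was at 255, miR-429 at 16.2 and miR-449a at 14.9, and each was listed at 0 in the other hearts. miR-208b was at 2100.4 against 1741 to 1769 in the other 3 in the heart of horse 32. In liver, miR-372 was at 932 against 169.7 to 257 in the other 3 in horse 27, miR-20b at 61.4 against 44.8 to 46.2 in the other 3 in horse 34, and miR-142-5p at 4607 in horse 34 and 0 in the other livers.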

How the results depend on the processing

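The scale had the largest effect among the alternatives run. As shares, the calls went from 51 higher and 69 lower to 26 and 138, and family sums from 40 and 51 to 22 and 105. With each total taken without the 10 most abundant miRNAs of either organ, 39 were higher and 102 lower, a split between the scales. A pseudocount of 10 parts in 1000000 lowered the count of higher shares from 26 to 17. Under the other settings of scale, pseudocount, filter and samples, 117 to 125 miRNAs were called, and 137 with no fold minimum. The log2 fold change turned negative as a share for miR-26a (-1.13), let-7f (-1.12), miR-218 (-0.072), miR-25 (-1.06), miR-30e (-0.17), miR-125a-5p (-1.17), miR-128 (-1.08), miR-433 (-0.17), miR-15a (-0.011) and let-7d (-1.07). Shares divide by totals that are larger in heart, and they also change the pseudocount, which matters for names near 0. The sum of the miR-8908 names, at 0 in every heart, went from -12.32 to -9.99.

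Leaving out a horse or a library gave 102 to 128 calls (43 to 55 higher, 59 to 73 lower). Of 83 called miRNAs named here, 72 were called each time. With the horse as a block, 116 were called (48 higher, 68 lower), and of the named ones only miR-433 lost its call. Under the block, the evenness measures differed by the same 24.7 and 6.30 percentage points, -7.50 miRNAs and -9.24 in effective number, but the smallest p of the paired exact test is 0.125. Without any 1 horse these were 22.7 to 25.8, 5.69 to 7.11, -8.33 to -7.000 and -9.65 to -8.65, with p = 0.1 by exact permutation, the smallest for 3 against 3.

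The folds of means moved over 1.5 times without 1 library for miR-133a (2609 to 4152) and miR-133b (both without the liver of horse 30), miR-122 (744 to 1146, heart of horse 34), miR-9a (63.7 to 125, liver of horse 34), miR-1307 (4.16 to 6.94, liver of horse 30), miR-34b-5p (2.94 to 1.64, heart of horse 27, or 5.28, liver of horse 30), miR-205 (3.04 to 1.68, heart of horse 27) and miR-449a (1.16 to 2.82, liver of horse 30), as well as miR-490-5p, miR-10a and miR-10b, given above. In favor of liver, miR-200c went from 4.44 to 7.24 without the heart of horse 34, miR-146b-5p from 2.30 to 3.46 without that of horse 30 and miR-17 from 2.85 to 9.43 without that of horse 27. The mean fold of let-7f (1.23 to 0.812) and miR-128 (1.32 to 0.846), neither of them called, turned from heart to liver without the heart of horse 34. The settings of names at 0 and the sums by name were chosen after seeing the data. Sums over shared seeds and arm ratios were not run: mature sequences were not used here, and no pair of arms had 10 normalized counts in all 8 libraries. Depth limits miRNAs near 0, where fewer than 6 reads are listed as 0.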
